A study of Sus scrofa with 12 samples.

Results

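The respiratory chain and ATP synthase genes described here were all entries of the expression table named for a subunit of complex I to V, with cytochrome c, which made 103 of the table's 20390 genes. An entry was taken when its symbol began with NDUF, SDHA to SDHD, UQCR, COX and a digit, or ATP5, when it was CYC1, CYCS or NUDFV2 (the table's spelling of NDUFV2), or when a placeholder's description named a subunit. Complex I had 41 entries, complex II 4, complex III 11, complex IV 23 and complex V 22, beside CYCS and the assembly factor COX17. The 103 entries stood for 82 genes, since some genes had 2 or 3 entries among which reads may have been divided. The subunits encoded by mitochondrial DNA, and the nuclear genes SDHA, COX4I1, ATP5C1, NDUFB1, NDUFB4, NDUFB10 and NDUFA13, were not analysed here.

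Complexes I and II pass electrons from NADH and succinate to ubiquinone, complex III passes them on to cytochrome c, and complex IV, cytochrome c oxidase, hands them to oxygen. Complexes I, III and IV pump protons across the inner mitochondrial membrane, and complex V, the ATP synthase, lets them back through its membrane rotor while its F1 head makes ATP. The subunits are made from nuclear and mitochondrial genes and are joined with the help of assembly factors. Birth moves the piglet from the placenta's supply of glucose to breathing air and to fat-rich milk, and the uterus goes on growing after birth.

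RNA was sequenced from the uteri of 12 female piglets, 1 library per animal and 4 animals per group. The PND0 animals were killed within 1 h of birth without having nursed. PND2N animals nursed at will for 48 h, PND2R animals were given a commercial milk replacer for 48 h, and both were killed at 50 h of age. All were crosses of Landrace, Yorkshire, Duroc and Hampshire, and the uteri were whole organs trimmed of connective tissue. The labels give no litter, so the p-values measure the spread between these 12 animals, and in such whole tissue fewer cells of a type and less RNA per cell cannot be told apart. The day 2 groups differ from PND0 both in age and in having been fed, which cannot be told apart.

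The authors' normalized values summed to 26534074 to 29544130 per library, and 17.8% to 22.1% of genes sat at the table's lowest value of 1, where expression was not detectable at this depth. The values are not stated to be per length of gene, so levels are compared between animals and not between genes. Uterine genes were present, with HOXA11 between 3827 and 8542 and ESR1 between 1035 and 7785. Of the 103 entries 92 exceeded 1 in at least 4 of the 12 libraries and were tested. The other 11 were low everywhere: 9 stood at 1 in all libraries, among them COX7B2, and COX8H and a second CYC1 entry exceeded 1 in 3 libraries. Changes are given as log2 change ± SE of log2(value + 1) from one limma fit of all 12 libraries, with p adjusted over the 16862 genes tested and a threshold of 0.05.

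Some transcripts of complexes I, III, IV and V were higher at 50 h of age than at birth. None of the 4 tested entries of complex II passed the test, and 4 are too few to set that complex apart. Against PND0, 6 of 92 entries rose in the nursed animals and 28 rose in the replacer-fed animals, and with both day 2 groups averaged 30 rose. 1 entry, a low NDUFA2 placeholder, fell in the replacer-fed animals and in the average. Over all genes tested the share that rose was 1.91% in nursed animals, 7.7% in replacer-fed animals and 9.57% in the average of both, and the share that fell was 1.41%, 7.31% and 8.49%. The median change of the 92 entries was 0.50 in PND2N, 0.68 in PND2R and 0.59 in the average, where the median over all genes was -0.04, -0.06 and -0.05. A positive change was found in 82 of 92 entries for PND2N and for PND2R alike, against 47.5% and 47.0% of all genes. In the average 80 of 92 changes were positive, against 47.2% of all genes. An F test over the 3 groups called 13 entries, where it called 6.43% of all genes.

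These counts rested on few libraries. Without PND0 3 and PND0 4 the number that rose in the average was 2 (NDUFS4 and ATP5O), it was 0 in PND2N and 1 in PND2R (NDUFS4), where 5.08%, 1.57% and 4.15% of all genes rose, so the share of entries that rose was below that of all genes in each. The medians were 0.28, 0.23 and 0.38. Without PND0 4 alone 9 entries rose in the average, where 3.56% of all genes did. Without PND2N 1, PND2R 2 and PND2R 3, the 3 libraries with the highest DES, the numbers were 12, 1 and 1, where 3.76%, 0.741% and 0.64% of all genes rose, with medians of 0.37, 0.33 and 0.44, and the single entry was NDUFS4 in each. When each comparison was fitted on its own 8 libraries, no entry rose in PND2N, where 1 of all 16862 genes rose, and 31 rose in PND2R, where 7.42% of all genes did. NDUFS4 rose in the average under every alternative run, as did ATP5O.

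**Figure D1:**
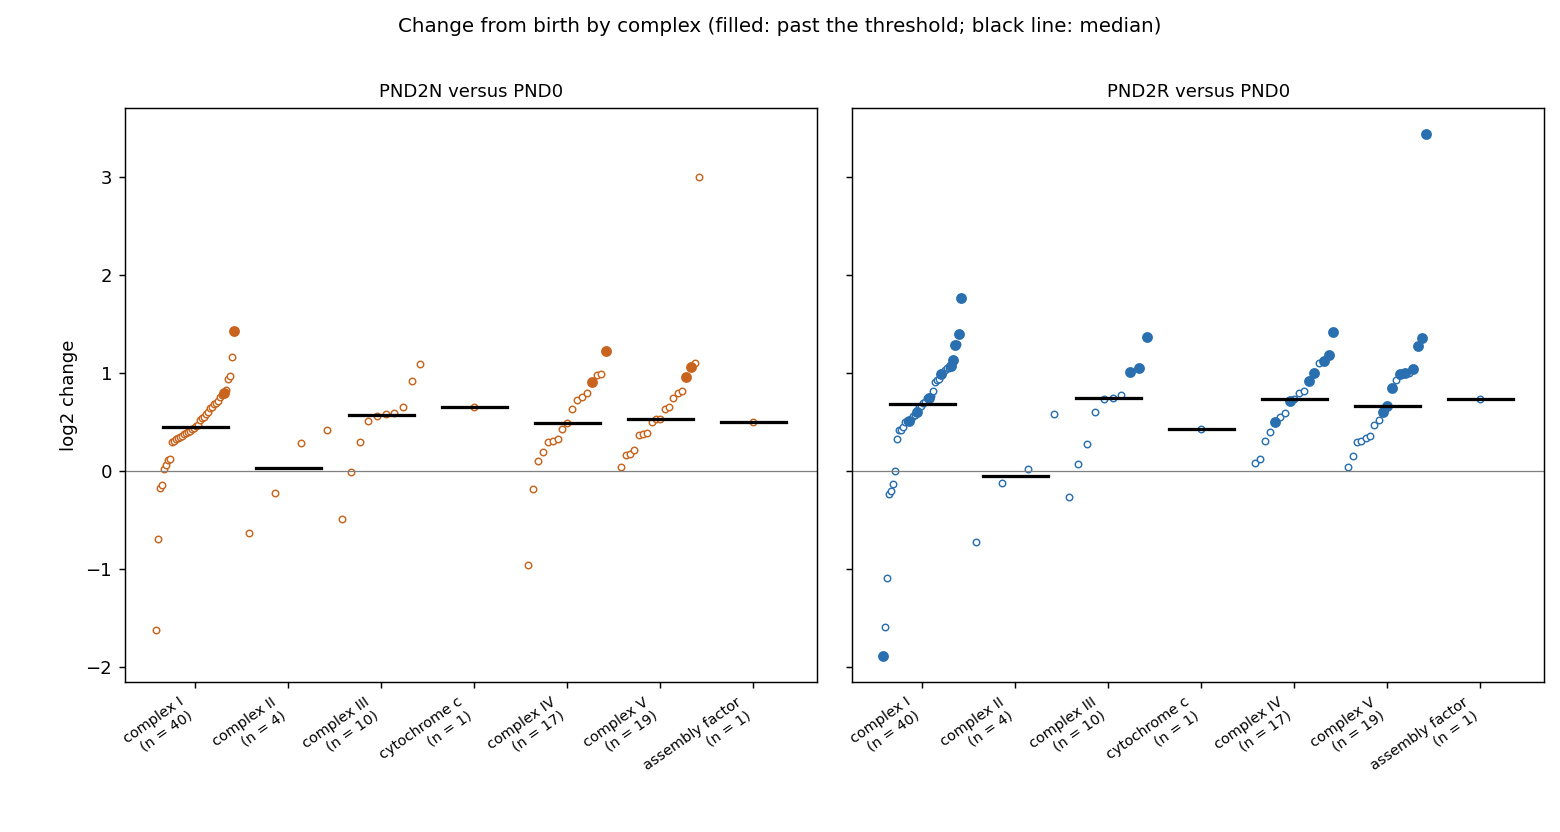
Log2 change from PND0 of each tested entry in PND2N (left) and PND2R (right), grouped by complex. Each circle is 1 entry, filled where the adjusted p was under 0.05, and black lines are medians, which lie at 0.45 and 0.68 for complex I and at 0.03 and -0.05 for complex II. The highest circle in complex V is the second ATP5F1 entry.

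Complex I, the largest of the complexes, takes electrons from NADH in its N module, hands them to ubiquinone in its Q module and pumps protons in its membrane arm. Of its 40 tested entries 9 rose and 1 fell in the average of both day 2 groups, with a median of 0.59. The median was 0.29 over 10 entries of the N module and 0.52 over 10 of the Q module. It was 0.71 over 9 of the membrane arm near the junction and 0.74 over 11 of the distal membrane arm. All 11 changes of the distal arm were positive, against 47.2% of all genes. The 11 stood for fewer genes, since NDUFB3 and NDUFB11 each had a second entry among them. The second NDUFB3 entry exceeded 1 in only 8 of 12 libraries.

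NDUFS4, an accessory subunit of the N module that is needed late in assembly (chromosome 16, 35710710 to 35730842, minus strand of Sscrofa10.2), had the smallest p of all entries. Its normalized value was 440.1, 418, 516 and 394 in PND0 1 to 4, 1859, 947, 736 and 1515 in PND2N 1 to 4, and 1129.8, 1714, 1929 and 1348 in PND2R 1 to 4. Every day 2 library stood above every newborn library, and the newborn libraries differed little from one another. NDUFS4 rose by 1.43 ± 0.28 (adjusted p = 0.0269) in PND2N and by 1.77 ± 0.28 (adjusted p = 0.00696) in PND2R.

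NDUFV2, an iron-sulfur subunit of the N module (chromosome 6, 91999073 to 92032508, minus strand), stood at 2221, 2432, 1845 and 1534 in PND0 1 to 4, 4480.2, 3036, 3027 and 3416 in PND2N 1 to 4, and 3318, 4382, 4707 and 3495 in PND2R 1 to 4. The newborn and day 2 libraries did not overlap, and PND2N 1, PND2R 2 and PND2R 3 were the highest of the 12. It rose by 0.80 ± 0.19 (adjusted p = 0.0455) in PND2N and by 0.99 ± 0.19 (adjusted p = 0.012) in PND2R. NDUFB5, a subunit of the distal membrane arm (chromosome 13, 124281358 to 124296632, plus strand), was 1933, 2148, 1509 and 1388 in PND0 1 to 4, 2829, 2356, 2502 and 2619.5 in PND2N 1 to 4, and 2576, 2779, 2677 and 2426 in PND2R 1 to 4. Its 8 day 2 libraries were close together and all above the newborn ones. NDUFB5 rose by 0.60 ± 0.15 (adjusted p = 0.0256) in PND2R, and in PND2N its change was 0.58 ± 0.15 (adjusted p = 0.0585).

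The entry that fell was LOC100515604, one of 3 entries described as NDUFA2, an N module subunit (chromosome 3, 41509374 to 41509925, plus strand). It was at 9.20, 4.60, 17.02 and 17.5 in PND0 1 to 4, 4.84, 1.86, 2.35 and 2.78 in PND2N 1 to 4, and 2.22, 1.00, 4.40 and 1.91 in PND2R 1 to 4, near the lowest value of the table, and PND0 2 lay below PND2N 1. Its change was -1.89 ± 0.45 (adjusted p = 0.0222) in PND2R. The other NDUFA2 entries changed by -0.15 ± 0.37 (adjusted p = 0.782) and -0.09 ± 0.39 (adjusted p = 0.88) in the average of both day 2 groups.

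Further complex I entries that rose in the average included NDUFS3 of the Q module, NDUFS5 and NDUFA8 of the membrane arm near the junction, and NDUFB3 and NDUFB7 of the distal arm. NDUFS5 ranged over 362 to 879.6 at birth, 971 to 2202 in PND2N and 1005 to 1892 in PND2R, and its change was 1.23 ± 0.29 (adjusted p = 0.017). NDUFA8 ranged over 673 to 1271 at birth, 1125 to 3296 in PND2N and 1588 to 3452 in PND2R, a change of 1.18 ± 0.32 (adjusted p = 0.0271), and its nursed and newborn libraries overlapped. For NDUFS3 the ranges were 1246 to 1967 at birth, 2040.3 to 4418 in PND2N and 2441 to 4823 in PND2R, and the change was 0.98 ± 0.25 (adjusted p = 0.0228).

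In the catalytic core of complex I the flavin subunit NDUFV1, which takes the electrons from NADH, had a change of 0.52 ± 0.25 (adjusted p = 0.145) and ranged over 2228 to 3829.5 at birth, 2899 to 6220.1 in PND2N and 3143 to 5490.3 in PND2R. NDUFS1, the large iron-sulfur subunit of the N module, was 3028, 3387, 3430.1 and 3149 in PND0 1 to 4, 2695, 3896, 4664 and 3122 in PND2N 1 to 4, and 4017, 2755, 2799 and 3545 in PND2R 1 to 4. Newborn and day 2 libraries of NDUFS1 overlapped fully, and PND2N 1, PND2R 2 and PND2R 3 were its lowest libraries. Its change was 0.06 ± 0.16 (adjusted p = 0.813), the sign of which turned with single libraries left out.

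Complex II is succinate dehydrogenase, an enzyme of the citric acid cycle as well as of the respiratory chain, and has no subunit from mitochondrial DNA. In the fit of all 12 libraries none of its 4 entries, which stood for 3 genes, passed the threshold in any contrast. Where 9.57% of all genes rose in the average, none of 4 does not set complex II apart. Changes were positive in 2 of 4 entries in each comparison with birth. SDHB, the iron-sulfur subunit, was 3663, 4052, 2669 and 2331 in PND0 1 to 4, 5100.1, 3539.7, 3521 and 4677 in PND2N 1 to 4, and 4034, 5246, 5333 and 4133 in PND2R 1 to 4. The lowest newborn libraries, PND0 3 and PND0 4, lay below all others, while PND0 1 and PND0 2 lay within the day 2 range. The SDHB change was 0.50 ± 0.18 (adjusted p = 0.0654). With PND0 2 left out SDHB rose past the threshold in PND2R and in the average, where 6.88% and 8.14% of all genes rose. The membrane anchor SDHC ranged over 814 to 1343 at birth, 1142 to 1581 in PND2N and 965 to 1327 in PND2R, with a change of 0.15 ± 0.17 (adjusted p = 0.515). The 2 SDHD entries, for the other anchor, changed by -0.17 ± 0.19 (adjusted p = 0.516) and -0.68 ± 0.34 (adjusted p = 0.162).

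Complex III carries electrons from ubiquinol to cytochrome c. In the average 4 of its 10 tested entries rose, with a median of 0.64, and in PND2R 3 rose. Of all genes 9.57% and 7.7% rose there. No complex III entry passed in PND2N, where 1.91% of all genes rose. With PND0 3 and PND0 4 left out no complex III entry rose in any comparison with birth.

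UQCRQ, a small subunit beside cytochrome b (chromosome 2, 140418361 to 140420385, plus strand), was 2317, 2612, 1787 and 1418 in PND0 1 to 4, 5163, 3181, 3114 and 3848 in PND2N 1 to 4, and 3436, 4506, 5222 and 3453 in PND2R 1 to 4. UQCR10, a small subunit near the Rieske protein (chromosome 14, 50702616 to 50705416, plus strand), was 1834, 2035, 1146 and 1082 in PND0 1 to 4, 4996, 2360.2, 2335 and 3476 in PND2N 1 to 4, and 2843, 4514, 5199.8 and 3106 in PND2R 1 to 4. Neither showed overlap between newborn and day 2 libraries, and PND2N 1, PND2R 2 and PND2R 3 were the highest in both. UQCRQ rose by 1.05 ± 0.23 (adjusted p = 0.0178) in PND2R and changed by 0.92 ± 0.23 (adjusted p = 0.0512) in PND2N. UQCR10 rose by 1.37 ± 0.30 (adjusted p = 0.0178) in PND2R and changed by 1.09 ± 0.30 (adjusted p = 0.0676) in PND2N.

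UQCRB, a small matrix-facing subunit, ranged over 698 to 1368 at birth, 1138 to 2028 in PND2N and 1537 to 2524 in PND2R, and in the average it rose by 0.83 ± 0.23 (adjusted p = 0.0285). The entry LOC100156879, described only as ubiquinol-cytochrome c reductase, rose by 0.59 ± 0.18 (adjusted p = 0.0436). Of the catalytic subunits that hold the redox centres, those from nuclear genes did not pass, and those from mitochondrial DNA were not analysed. The Rieske iron-sulfur protein UQCRFS1 changed by 0.28 ± 0.12 (adjusted p = 0.106) and cytochrome c1, CYC1, by 0.68 ± 0.27 (adjusted p = 0.0895). The CYC1 change lay above the median of the complex. The core subunit UQCRC2, named after its values were seen, was 3848, 3944, 3989.9 and 3138 in PND0 1 to 4, 1886, 4658, 5707 and 3647 in PND2N 1 to 4, and 4296, 2138, 2525 and 3898 in PND2R 1 to 4. Its lowest 3 libraries were PND2N 1, PND2R 2 and PND2R 3, and its change was -0.14 ± 0.28 (adjusted p = 0.728). A second, low UQCRC2 entry changed by -0.21 ± 0.44 (adjusted p = 0.746).

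CYCS, the cytochrome c that shuttles electrons from complex III to complex IV, was 416, 503, 269.8 and 212 in PND0 1 to 4, 672, 455, 484 and 502 in PND2N 1 to 4, and 448, 424, 448 and 457 in PND2R 1 to 4. Its newborn and day 2 libraries overlapped, and the change was 0.54 ± 0.23 (adjusted p = 0.11).

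Complex IV reduces oxygen to water with subunits from mitochondrial DNA, around which nuclear subunits are arranged, some with tissue-specific forms. Of its 17 tested entries 8 rose in the average, with a median of 0.66, 7 in PND2R and 2 in PND2N. All 17 had a positive change in PND2R and 15 in PND2N.

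COX7B (chromosome X, 66624081 to 66630824, plus strand), a small membrane subunit, was 2779.6, 3279.5, 2287 and 1964 in PND0 1 to 4, 6571, 3988, 3868 and 5059 in PND2N 1 to 4, and 4608, 6349.5, 6624 and 4787 in PND2R 1 to 4. The widespread form COX7A2 (chromosome 1, 96492843 to 96497798, minus strand) was 1343, 1629, 1211 and 911 in PND0 1 to 4, 4784, 2157, 2207 and 3156 in PND2N 1 to 4, and 2461, 3936, 4508 and 2825 in PND2R 1 to 4. In both, all day 2 libraries were above all newborn ones and PND2N 1, PND2R 2 and PND2R 3 were highest. COX7B rose by 0.91 ± 0.22 (adjusted p = 0.0447) in PND2N and by 1.13 ± 0.22 (adjusted p = 0.0119) in PND2R. COX7A2 rose by 1.22 ± 0.29 (adjusted p = 0.0429) and 1.42 ± 0.29 (adjusted p = 0.0133).

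Its paralog COX7A1, the form of heart and skeletal muscle, ranged over 414 to 779 at birth, 745 to 1851 in PND2N and 827 to 1619 in PND2R and rose by 1.04 ± 0.30 (adjusted p = 0.0349) in the average. The share of COX7A2 in the summed value of the pair was 68.7% ± 4.3 (SD, n = 4) at birth, 72.4% ± 1.7 (SD, n = 4) in PND2N and 73.3% ± 1.4 (SD, n = 4) in PND2R, with overlapping libraries. Values are not per length, so only the shift between groups can be read from such a share. COX7A2L, a related protein of supercomplexes of the chain, rose by 0.46 ± 0.12 (adjusted p = 0.0233) in the average, with 3760.0 to 5375 at birth, 5695 to 7082 in PND2N and 6149.9 to 7433 in PND2R.

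Also rising in the average among complex IV entries were NDUFA4, once counted with complex I, at 0.72 ± 0.17 (adjusted p = 0.0167), COX6C at 0.84 ± 0.21 (adjusted p = 0.0212), the entry COX6B at 1.09 ± 0.28 (adjusted p = 0.0229) and COX7C at 0.90 ± 0.25 (adjusted p = 0.0327). COX6C reached 3456 to 6409 at birth, 5836 to 11665 in PND2N and 7611 to 10909.6 in PND2R. NDUFA4 reached 2804 to 4493 at birth, 4926 to 7771 in PND2N and 5099 to 6962 in PND2R, without overlap. COX5A, which lies next to the catalytic core, changed by 0.30 ± 0.22 (adjusted p = 0.32), and its newborn libraries (499 to 1205) enclosed nearly all day 2 values.

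Of the further paralogs with narrow tissue ranges, COX6A2, NDUFA4L2 and COX8C, none changed past the threshold against birth. COX6A2, the muscle form, was 283, 223, 344 and 415 in PND0 1 to 4, 849.9, 200.3, 133 and 522 in PND2N 1 to 4, and 288, 588, 612 and 402 in PND2R 1 to 4, highest in PND2N 1, PND2R 3 and PND2R 2, with a change of 0.33 ± 0.44 (adjusted p = 0.608). Its counterpart COX6A1 changed by 0.71 ± 0.25 (adjusted p = 0.0679). NDUFA4L2, a paralog of NDUFA4 known as a hypoxia target, ranged over 16.4 to 44.3 at birth, 15.4 to 66.1 in PND2N and 18.4 to 50.4 in PND2R, with a change of -0.03 ± 0.43 (adjusted p = 0.968). COX8C, the testis form, stood at 1 in all 4 PND2N libraries and at 2.30 to 3.93 in PND0 and 2.20 to 7.63 in PND2R, close to the limit of detection, and COX8A changed by 0.66 ± 0.30 (adjusted p = 0.132).

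Complex V, the ATP synthase, joins a catalytic F1 head to a membrane rotor of c subunits by a central and a peripheral stalk. All 19 tested entries had a positive change in both day 2 groups, against 47.5% of all genes in PND2N and 47.0% in PND2R. They include LOC100620683, a second ATP5I entry, and LOC100519871, a c subunit placeholder. Each of these exceeded 1 in only 4 of 12 libraries, the least that the filter allowed, so its sign rests on few libraries. In the average 9 of 19 rose, with a median of 0.60: 7 of 13 in the stalks and membrane part (median 0.79) and 2 of 4 in the F1 head (median 0.54). Neither of the related genes ATP5S and ATP5SL rose, with changes of 0.16 ± 0.11 (adjusted p = 0.285) and 0.25 ± 0.12 (adjusted p = 0.146).

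ATP5O, the subunit that joins the peripheral stalk to the head (chromosome 13, 202006910 to 202017177, minus strand), was 5219.6, 6121, 4444 and 3542 in PND0 1 to 4, 11257, 8224, 7544 and 10253 in PND2N 1 to 4, and 8243, 10206, 11121 and 8343 in PND2R 1 to 4. ATP5J, coupling factor 6 of the same stalk (chromosome 13, 193838424 to 193880609, plus strand), was 3045, 3408, 2432 and 2111 in PND0 1 to 4, 8567, 4284, 4114 and 6629.6 in PND2N 1 to 4, and 5083, 7262, 8594 and 5786 in PND2R 1 to 4. For both, day 2 and newborn libraries were apart. ATP5O rose by 0.96 ± 0.19 (adjusted p = 0.0282) in PND2N and 0.99 ± 0.19 (adjusted p = 0.0124) in PND2R, and ATP5J by 1.06 ± 0.26 (adjusted p = 0.0483) and 1.28 ± 0.26 (adjusted p = 0.0134).

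ATP5H, the stalk's d subunit (chromosome 12, 6261825 to 6268587, minus strand), was 3029, 3349, 2686 and 1972 in PND0 1 to 4, 7073, 3740.0, 3759 and 4924 in PND2N 1 to 4, and 4532, 6083, 7266 and 4754 in PND2R 1 to 4. It rose by 1.04 ± 0.24 (adjusted p = 0.021) in PND2R and changed by 0.80 ± 0.24 (adjusted p = 0.0844) in PND2N, with no overlap between newborn and day 2 libraries. The 2 further entries for ATP5H stood at 1 in every library.

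ATP5A1, the alpha subunit of the F1 head (chromosome 1, 100026435 to 100050453, minus strand), was 13361, 14692, 12598 and 10827 in PND0 1 to 4, 22997, 16997, 17081 and 17678 in PND2N 1 to 4, and 17755, 21161, 20951 and 17899 in PND2R 1 to 4. Newborn libraries were all below the day 2 ones, and PND2N 1 stood apart from the other nursed libraries. It rose by 0.60 ± 0.14 (adjusted p = 0.022) in PND2R and changed by 0.53 ± 0.14 (adjusted p = 0.0592) in PND2N. ATP5B, the beta subunit that carries the catalytic sites, was 17666, 21228, 20101 and 17138 in PND0 1 to 4, 23503, 25577, 29993 and 20625 in PND2N 1 to 4, and 20476, 18101, 20093 and 19401 in PND2R 1 to 4. Its highest libraries were PND2N 3, PND2N 2 and PND2N 1, its replacer-fed libraries lay within the newborn range, and its change was 0.38 ± 0.13 (adjusted p = 0.12) in PND2N and 0.04 ± 0.13 (adjusted p = 0.845) in PND2R. ATP5E, a small subunit of the central stalk counted with the head, rose by 0.91 ± 0.25 (adjusted p = 0.0304) in the average.

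**Figure D2:**
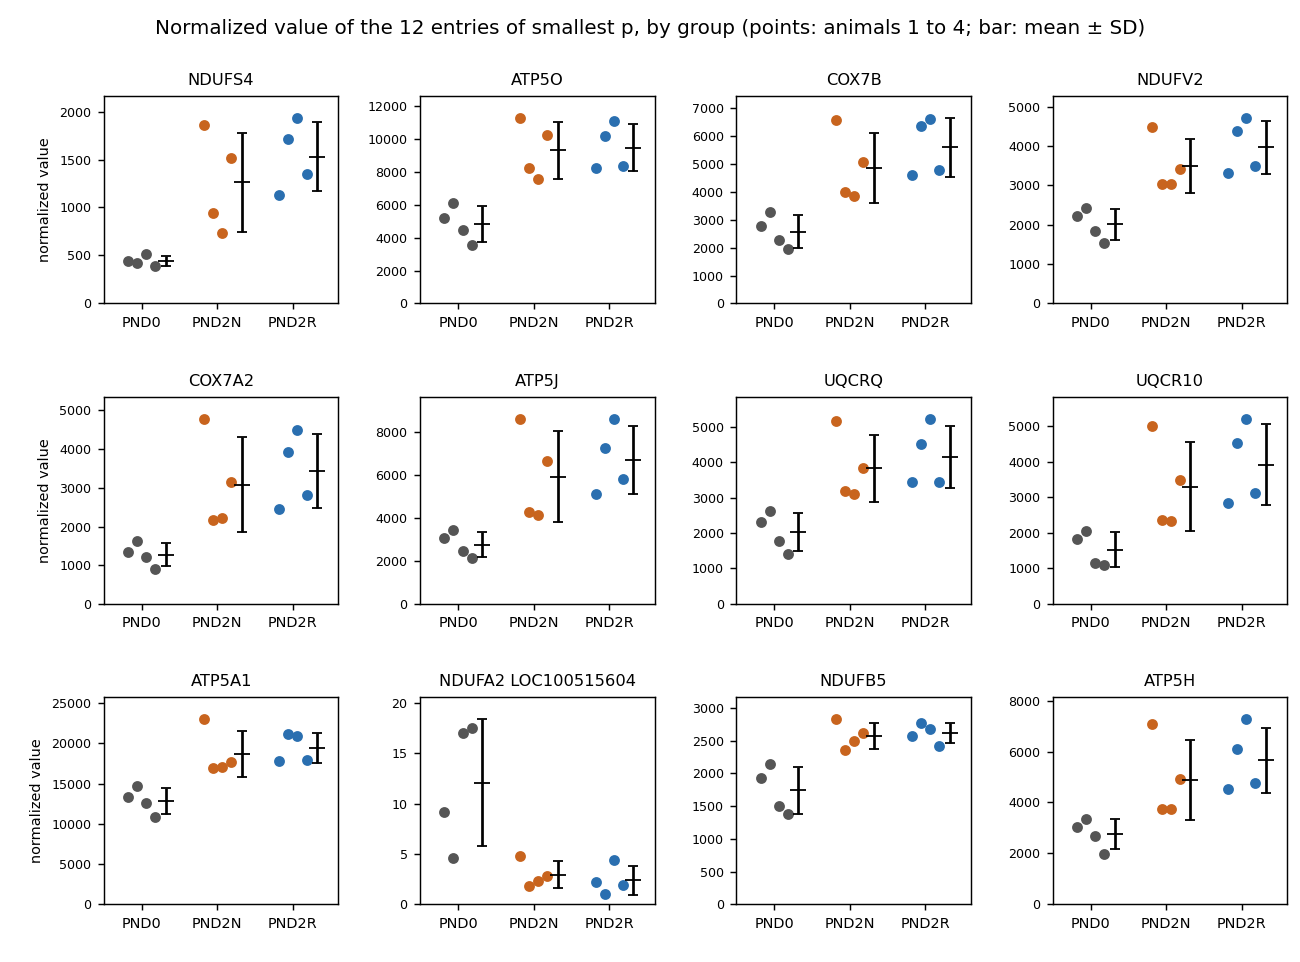
Normalized value (linear, vertical axes from 0) of the 12 entries with the smallest p for both day 2 groups against PND0, with 1 point per animal and the mean ± SD of 4 animals beside them. In 11 panels all day 2 points lie above all newborn points, and in the NDUFA2 entry LOC100515604 3 of the 4 newborn values, which run from 4.60 to 17.5, lie above all day 2 values.

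The c subunit of the rotor is made from 3 genes, ATP5G1, ATP5G2 and ATP5G3, whose mature proteins are the same and whose import signals differ. ATP5G1 was 1836, 2177, 1419 and 1101 in PND0 1 to 4, 6522, 2369.7, 2570.1 and 3383 in PND2N 1 to 4, and 2738, 4823, 6069 and 3378 in PND2R 1 to 4. Its lowest day 2 library was above the highest newborn one. It rose by 1.36 ± 0.35 (adjusted p = 0.026) in PND2R and changed by 1.11 ± 0.35 (adjusted p = 0.0904) in PND2N. ATP5G2 rose by 0.74 ± 0.19 (adjusted p = 0.0239) in the average, and ATP5G3 changed by 0.42 ± 0.18 (adjusted p = 0.121).

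Of the summed value of the 3 c subunit genes, ATP5G1 made 10.8% ± 0.66 (SD, n = 4) at birth, 15.8% ± 3.5 (SD, n = 4) in PND2N and 16.5% ± 2.6 (SD, n = 4) in PND2R. The newborn libraries, at 10.1% to 11.7%, did not overlap with the nursed ones, at 13.3% to 20.9%, or the replacer-fed ones, at 13.5% to 19.5%. ATP5G3 made 44.5% ± 1.7 (SD, n = 4), 38.2% ± 2.3 (SD, n = 4) and 36.3% ± 1.1 (SD, n = 4), again without overlap between birth and day 2. The share of ATP5G2 was 44.6% ± 2.0 (SD, n = 4), 46.0% ± 3.5 (SD, n = 4) and 47.3% ± 1.7 (SD, n = 4), with overlapping libraries. No test was run on these shares.

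**Figure D3:**
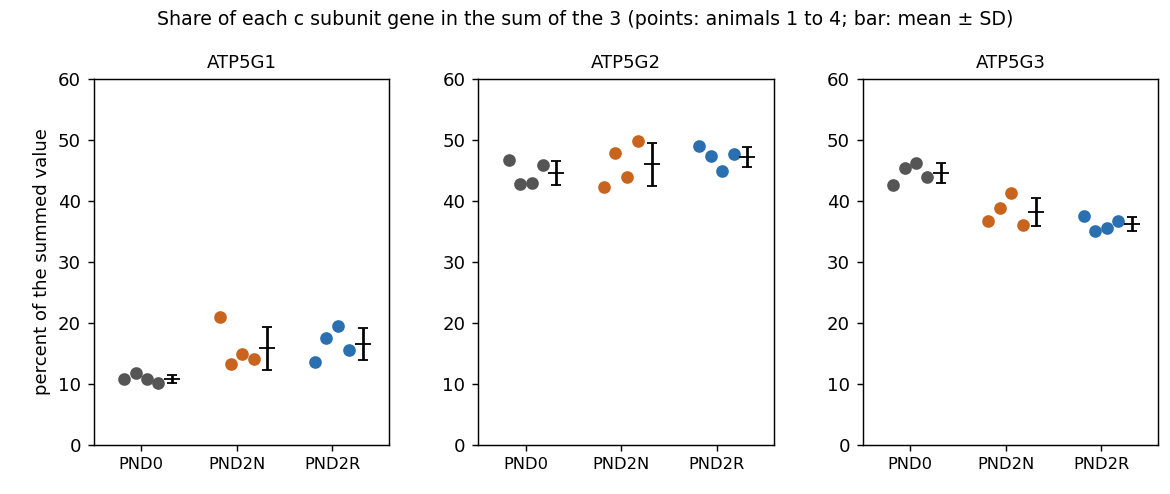
Share of ATP5G1, ATP5G2 and ATP5G3 in the summed normalized value of the 3 genes (percent, vertical axes from 0), with 1 point per animal and the mean ± SD of 4. The newborn ATP5G1 shares, 10.1% to 11.7%, are below all day 2 shares, and the newborn ATP5G3 shares, 42.5% to 46.2%, are above them.

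ATP5L, a subunit of the membrane part, rose by 0.60 ± 0.18 (adjusted p = 0.0389) in the average. The largest change of any entry was in LOC100620636, a second entry for ATP5F1, the b subunit of the peripheral stalk. It was 548, 30.6, 378 and 16.7 in PND0 1 to 4, 1356, 479.7, 733 and 987 in PND2N 1 to 4, and 962, 1237, 1268 and 1056 in PND2R 1 to 4. PND0 2 and PND0 4 were far below PND0 1 and PND0 3, and PND0 1 was above PND2N 2, so newborn and nursed libraries overlapped. Its change was 3.44 ± 0.92 (adjusted p = 0.0305) in PND2R and 2.998 ± 0.92 (adjusted p = 0.0874) in PND2N. The entry named ATP5F1, 2426 to 3348 at birth, 3171 to 3928 in PND2N and 2927 to 3849 in PND2R, changed by 0.37 ± 0.13 (adjusted p = 0.0672), and reads may have been divided between both entries.

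COX17, a copper carrier for the assembly of complex IV, changed by 0.62 ± 0.31 (adjusted p = 0.167). Over 23 tested assembly factors, COX17 included, 7 rose and none fell in the average, with a median of 0.42. Among these factors the alternative fits are reported for COX17 alone. Over all genes 9.57% rose and 8.49% fell. NDUFAF6, an assembly factor of complex I, rose by 1.01 ± 0.14 (adjusted p = 0.00325). SDHAF2, which places the flavin in SDHA, rose by 0.80 ± 0.22 (adjusted p = 0.0313), and NDUFAF3, of complex I, by 1.04 ± 0.29 (adjusted p = 0.0318). Among factors of other names LRPPRC, which stabilizes mitochondrial messenger RNA, rose by 0.73 ± 0.11 (adjusted p = 0.00379), TMEM70 of ATP synthase assembly by 1.01 ± 0.18 (adjusted p = 0.00677) and TMEM126B of complex I assembly by 0.76 ± 0.21 (adjusted p = 0.028).

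Nursed and replacer-fed animals did not differ in any entry past the threshold: limma called 0 of 92 in either direction, and over all genes 0.0% were higher in PND2N and 0.0119% lower. At an unadjusted p under 0.05 one entry was higher in PND2N, ATP5B, and one lower, COX8C, against 1.53% and 1.15% of all genes. The changes were 0.34 ± 0.13 (adjusted p = 1) and -1.35 ± 0.31 (adjusted p = 0.86). Libraries of the 2 groups did not overlap in these 2 entries alone, against 1.39% of all genes higher and 1.16% lower. COX8C stood at the lowest value in every PND2N library and passed the filter through the other groups. Its difference therefore lies at the limit of detection. The difference was negative in 76 of 92 entries and positive in 16, where 54.5% of all genes had a positive one, with a median of -0.17, but the median over the 92 entries spread widely within each group, from -0.18 to 0.66 in PND2N and from 0.00 to 0.63 in PND2R. Without PND2N 2, PND2N 3 or PND2R 3 the median of the difference was -0.05, -0.06 and -0.06, without PND2R 2 it was -0.11, and without PND2N 1 or PND2R 1 it was -0.36 and -0.30, with 13 to 29 positive entries. What size of difference could be detected with 4 animals a group was not computed, so the lack of calls does not show that the groups were alike.

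Without overlap between libraries, 22 of 92 entries were above birth in PND2N and 41 in PND2R, where 8.14% and 12.7% of all genes were. In PND2N 1 entry, COX8C, was below birth, and in PND2R 1, the NDUFA2 entry LOC100515604, against 7.88% and 15.6% of all genes. COX8C stood at the lowest value in every PND2N library, and the NDUFA2 entry was near that value. The numbers above birth in PND2R were 15 of 40 for complex I, 0 of 4 for complex II, 5 of 10 for complex III, 9 of 17 for complex IV and 12 of 19 for complex V.

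The entries moved together from animal to animal within a group. With each gene centred on its mean over the 12 libraries, the median of the 92 entries was -0.16, -0.04, -0.57 and -0.85 in PND0 1 to 4, 0.66, -0.18, -0.15 and 0.25 in PND2N 1 to 4, and 0.00, 0.48, 0.63 and 0.11 in PND2R 1 to 4. PND2N 1, PND2R 3 and PND2R 2 were the highest, PND0 3 and PND0 4 the lowest, and PND2N 2 and PND2N 3 lay beside PND0 1. The share of the library total in the 103 entries ran from 0.572% to 0.887% at birth, from 0.883% to 1.35% in PND2N and from 0.976% to 1.33% in PND2R.

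**Figure D4:**
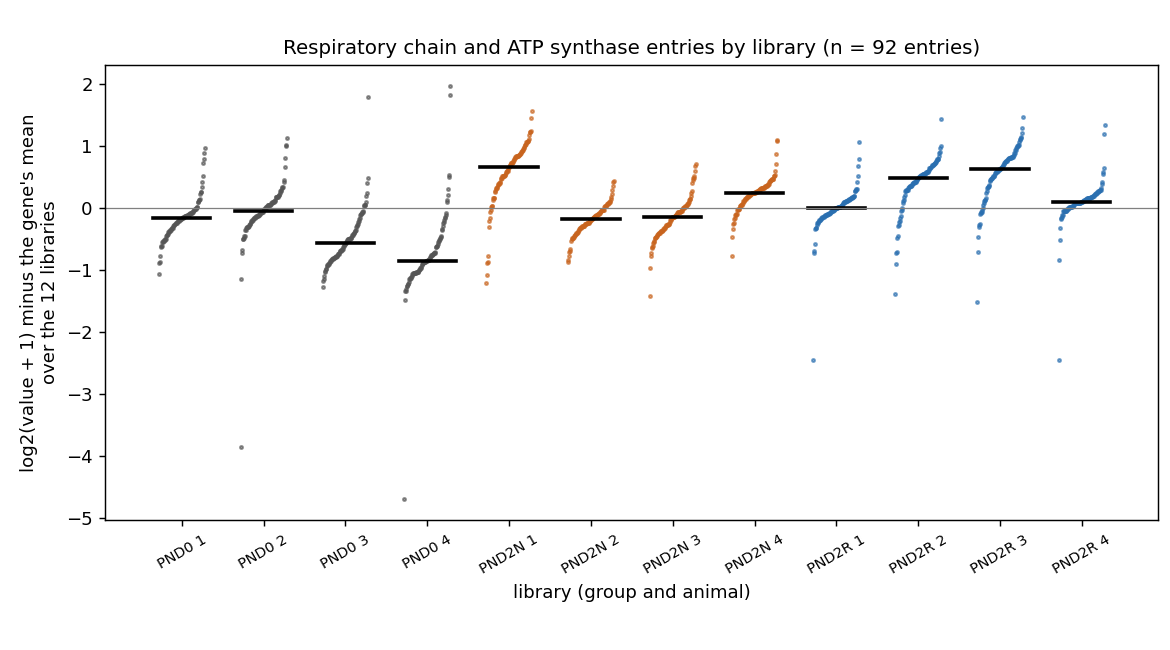
Each tested entry's log2(value + 1) minus its mean over the 12 libraries, sorted within each library, with the library's median as a black line. The medians of PND0 3 and PND0 4, -0.57 and -0.85, are the lowest and that of PND2N 1, 0.66, the highest.

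Both splits were shared by most entries. In 68 of 92 entries PND2N 1, PND2R 2 and PND2R 3 were all above the other 5 day 2 libraries, as were 21.0% of all genes tested, and in 5 of 92 they were all below, as were 26.0% of all genes. Among the 5 were NDUFS1, UQCRC2, SDHC and a second entry of SDHD. In 74 of 92 entries PND0 3 and PND0 4 were both below PND0 1 and PND0 2, against 34.4% of all genes. These libraries were set apart by DES and by epithelial genes, chosen with their values known, and no test was made on them.

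Markers of cell types differed along the same libraries. The smooth muscle list, 9 tested genes, had medians of 0.89, 0.57 and 0.39 in PND2N 1, PND2R 2 and PND2R 3, and its summed value ran over 144713 to 199741 at birth, 126341 to 361555 in PND2N and 169812 to 286808 in PND2R. DES, the muscle intermediate filament, was 40049, 33144 and 29022 in those libraries and 7460.1 to 23439.7 in the other 9. The share of genes at the lowest value was 22.1%, 21.9% and 21.3% there and at most 20.4% elsewhere. The epithelium list, 9 tested genes, had medians of 0.78 and 0.76 in PND0 1 and PND0 2 and of -1.28 and -1.46 in PND0 3 and PND0 4, and its summed value ran over 22437 to 104567 at birth, 49067 to 89983 in PND2N and 69586 to 87598 in PND2R. Leukocyte markers summed to 4335 to 8549.9, 8586 to 10869 and 7550.3 to 10433.

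In the average of both day 2 groups none of 9 smooth muscle, 9 epithelium, 5 red blood cell or 5 striated muscle markers passed, 4 of 9 leukocyte markers and 1 of 9 stroma markers rose, and 1 of 9 endothelium and 1 of 2 adipocyte markers fell. Over all genes 9.57% rose and 8.49% fell, so 1 of 9 was near the share of all genes. Striated muscle markers were low, with a summed value of at most 315, and so were the adipocyte markers, at most 59.1. The part of cell type markers in the change of the respiratory chain genes was not tested.

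**Figure D5:**
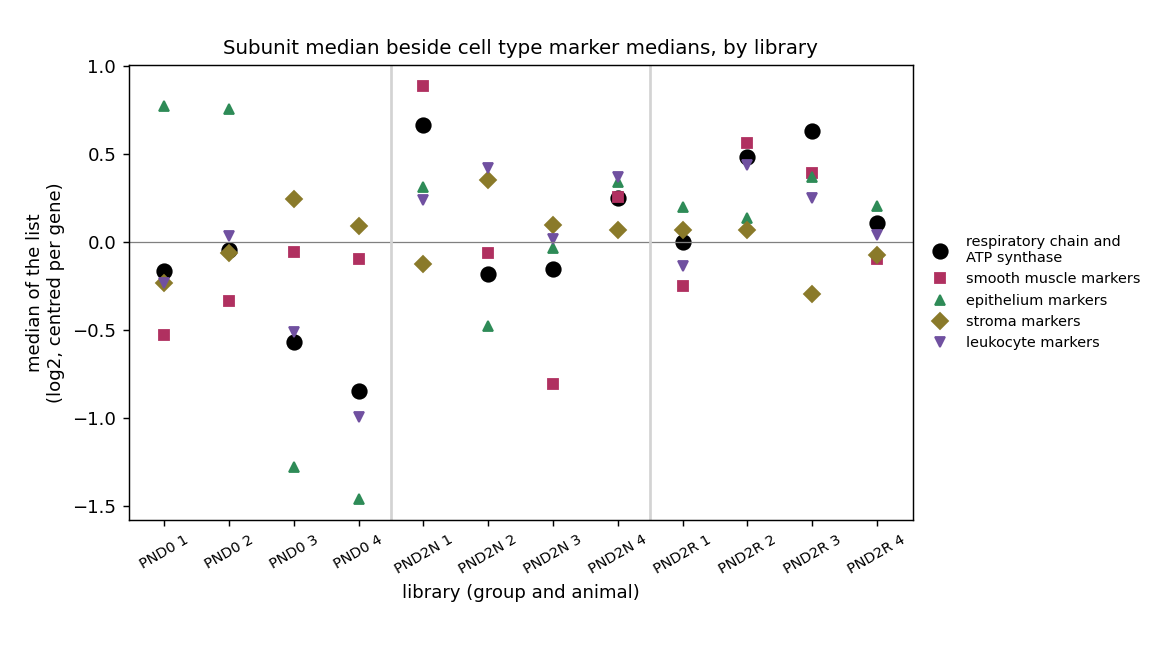
Median per library of the 92 respiratory chain and ATP synthase entries (black) and of the marker lists of smooth muscle, epithelium, stroma and leukocytes, as log2(value + 1) centred on each gene's mean over the 12 libraries. Vertical lines divide PND0, PND2N and PND2R. The subunit median and the smooth muscle median are both high in PND2N 1, PND2R 2 and PND2R 3, and the subunit and epithelium medians are both lowest in PND0 3 and PND0 4.

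Other mitochondrial gene lists are given for the average of both day 2 groups, and no difference between lists was tested. Their calls come from the fit of all 12 libraries, and the alternatives are not reported for them. The share of all genes that rose was 3.56% without PND0 4 and 5.08% without PND0 3 and PND0 4. In that average 9.57% of all genes rose and 8.49% fell, with a median of -0.05, and each count should be read beside these shares. The citric acid cycle, which makes NADH and succinate for the chain, had 3 genes that rose and 1 that fell of 13, with a median of -0.03. SUCLG1, of succinyl-CoA ligase, rose by 0.84 ± 0.17 (adjusted p = 0.0117), IDH3B, of isocitrate dehydrogenase, by 0.49 ± 0.14 (adjusted p = 0.0388), and DLD, the shared lipoamide dehydrogenase, fell, with a change of -1.06 ± 0.27 (adjusted p = 0.0222). None of 12 genes of pyruvate entry passed, and the smallest p belonged to PDHA1, the alpha subunit of pyruvate dehydrogenase, at 0.27 ± 0.09 (adjusted p = 0.0557), PDK3 at 0.46 ± 0.15 (adjusted p = 0.0561) and MPC2 at 0.45 ± 0.16 (adjusted p = 0.075).

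Ubiquinone synthesis, which makes the carrier between complexes I and III, had 1 of 12 that rose and 4 that fell, with a median of -0.13. The kinase-like genes ADCK3, COQ8A (a later name of the same gene, on another entry) and COQ8B fell, with changes of -1.49 ± 0.32 (adjusted p = 0.0125), -0.98 ± 0.27 (adjusted p = 0.0314) and -0.77 ± 0.22 (adjusted p = 0.0315). Of 12 genes that transcribe or copy mitochondrial DNA or regulate its genes, 1 rose and 1 fell, with a median of 0.05. These counts were near the shares of all genes, 9.57% and 8.49%. PPARGC1B, a coactivator of mitochondrial genes, fell, with a change of -1.81 ± 0.35 (adjusted p = 0.00884), TFB1M, a methyltransferase of mitochondrial ribosomal RNA, rose by 0.98 ± 0.29 (adjusted p = 0.0394), and SSBP1, which binds single-stranded mitochondrial DNA, changed by 0.51 ± 0.17 (adjusted p = 0.053).

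Genes that shape the inner membrane and import proteins rose in part, where 9.57% of all genes rose. Of 13 genes of cristae and inner membrane shape 6 rose, with a median of 0.56, led by APOO at 0.98 ± 0.17 (adjusted p = 0.00584), the cardiolipin synthase CRLS1 at 0.75 ± 0.13 (adjusted p = 0.0061) and CHCHD3 at 0.56 ± 0.11 (adjusted p = 0.0099). Of 18 import genes 5 rose, with a median of 0.34, and TIMM9, TIMM23 and TOMM34 had the smallest p, at 0.67 ± 0.14 (adjusted p = 0.0114), 0.74 ± 0.17 (adjusted p = 0.0147) and 0.60 ± 0.14 (adjusted p = 0.0181). ATP export and phosphate carriers had 2 of 9 that rose, SLC25A3, the phosphate carrier, at 0.40 ± 0.09 (adjusted p = 0.0175) and the outer membrane channel VDAC3 at 0.66 ± 0.17 (adjusted p = 0.0255), while CKMT1A, a mitochondrial creatine kinase, changed by 1.24 ± 0.45 (adjusted p = 0.0706). Of 10 genes of proton leak and other electron inputs 3 rose: SQRDL, which oxidizes sulfide, by 0.92 ± 0.19 (adjusted p = 0.0104), UCP2 by 0.90 ± 0.21 (adjusted p = 0.0176) and CHDH, choline dehydrogenase, by 0.90 ± 0.28 (adjusted p = 0.0462).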

How the data were processed

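The deposited file gave 1 normalized signal value per gene and library, made by the authors, linear and with a lowest value of 1. Per the submitters' processing notes bcl2fastq and build Sscrofa10.2 were used. How reads were aligned, counted and normalized is not stated there or elsewhere in these sources. No read counts were held, so no count test was run. Placeholders were named by their description or, by gene ID, by an NCBI gene table (Sscrofa11.1), in which 82 of the 103 entries were found and from which no coordinate was taken. Values were taken as log2(value + 1), genes above 1 in at least 4 libraries were kept, and limma 3.58.1 (R 4.3.3) was fitted once to the 12 libraries, with trended, robust empirical Bayes moderation, no covariate, two-sided tests and Benjamini-Hochberg adjustment over all genes tested. The fit was tested on simulated data. Tables and figures used Python 3.11.15, pandas 2.3.3, numpy 2.4.6 and matplotlib 3.10.9.

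The entries and lists were chosen with earlier results of these data known. Named entries were those past the threshold, the 4 with the smallest p in each complex, the catalytic core, paralogs and the lowest change of each complex, with values in every library for the 12 with the smallest p and others of interest. Values of some entries are not reported here, though the counts include them. Each further list gave its 3 genes of smallest p. Alternatives were other added values (0.1 and 5), no filter, a filter at 10, TMM scaling, quantile normalization, the compared groups alone, plain empirical Bayes, library weights, each library left out, the 3 libraries of high DES left out and, chosen after seeing the data, PND0 3 and PND0 4 left out.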

Additional observations from a re-analysis of the deposited data

Results flagged for a closer look

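ATP5A1, the alpha subunit of the ATP synthase head, stood at 22997 in PND2N 1, far from the other 3 nursed libraries, which lay between 16997 and 17678. It was the only 1 of 171 groups of 4 values checked in this way that passed, and chance gives such a gap in about 1 of 20 groups.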

How the results depend on the processing

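No paired analysis was possible because the labels give no replicate numbers that the groups share. The medians by complex and the counts kept their size under other added values and TMM scaling. Counts that rose or fell moved as follows, and where neither fewer libraries nor fewer genes entered the fit the cause was not tested. In PND2N, 6 rising entries became 2 with plain empirical Bayes (1.42% of all genes rose there), 1 without the 3 libraries of high DES (0.741%), 0 without PND0 3 and PND0 4 (1.57%), 0 with only the compared groups and 0 to 7 with single libraries left out (0 without PND0 1, PND0 4, PND2N 1, PND2N 2 or PND2N 4, 1 without PND0 3, 2 without PND2R 2 or PND2R 4, 3 without PND2R 1 or PND2R 3). In PND2N the share of all genes that rose was 0.0534% to 2.16% with single libraries left out. It was 0.599%, 0.119%, 0.267%, 0.415% and 0.0534% without PND0 1, PND0 4, PND2N 1, PND2N 2 and PND2N 4. With only the compared groups it was 0.00593%. The count of entries that fell in PND2N was 1 with library weights and 0 to 1 with single libraries left out. In PND2R, 28 rising entries became 1 without the libraries of high DES (0.64% of all genes) and 1 without PND0 3 and PND0 4 (4.15%), and 6 to 42 with single libraries left out (12 without PND0 3, 7 without PND0 4, 6 without PND2R 2 or PND2R 3, 42 without PND2N 1). In PND2R the share of all genes that rose was 1.6% to 10.9% with single libraries left out. It was 4.4%, 2.9%, 1.6%, 1.79% and 10.9% without PND0 3, PND0 4, PND2R 2, PND2R 3 and PND2N 1. The 1 entry that fell in PND2R became 0 with the filter at 10, where it was not tested, with quantile normalization, without the libraries of high DES and without PND0 3 and PND0 4, and was 0 to 1 with single libraries left out (0 without PND0 3, PND0 4 or PND2R 2). In the average, 30 rising entries became 19 with library weights (7.28% of all genes), 12 without the libraries of high DES (3.76%), 2 without PND0 3 and PND0 4 (5.08%, a larger share than that of the entries), and 9 to 38 with single libraries left out (14 without PND0 3, 9 without PND0 4, 20 without PND2N 4). In the average the share of all genes that rose was 3.56% to 11.5% with single libraries left out. It was 5.35%, 3.56% and 5.35% without PND0 3, PND0 4 and PND2N 4. The 1 entry that fell in the average became 0 with the filter at 10, quantile normalization, without PND0 3 and PND0 4 and without PND0 4 alone, and was 0 to 1 with single libraries left out. The 13 entries of the F test became 1, 0 and 0 to 19 without the libraries of high DES, without PND0 3 and PND0 4 and with single libraries left out. Over all 16862 genes the F test called 1084 in the main fit. In the same 3 alternatives it called 283, 195 and 114 to 1690, so the count fell or moved over all genes too. Without PND0 3 and PND0 4 the median of complex II in PND2N was -0.20, and that of complex III 0.23 in PND2N and 0.39 in PND2R. With single libraries left out the median of all entries stayed between 0.33 and 0.65 in PND2N, 0.53 and 0.80 in PND2R and 0.46 and 0.73 in the average, and between -0.36 and -0.05 for PND2N against PND2R.

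No call turned its sign under any alternative run. Changes that had not passed turned sign in 22 of the comparisons of named entries. Without PND0 3 and PND0 4 they were COX17 (-0.0901), COX5A (-0.17) and COX8A (-0.0152) in PND2N, SDHC (-0.14), UQCRC2 LOC100620271 (-0.57), CYCS (-0.0423), COX5A (-0.17) and NDUFS1 (0.0156) in PND2R, NDUFA4L2 in PND2N (0.26), and SDHC (-0.00340), COX5A (-0.17) and NDUFA4L2 (0.41) in the average. Quantile normalization turned SDHC (-0.0275) and SDHD (0.11) in PND2R, NDUFA4L2 (0.23) in PND2N, and SDHD (0.0328), UQCRC2 LOC100620271 (0.30), COX8C (0.19) and NDUFA4L2 (0.45) in the average. Without the libraries of high DES NDUFS1 (0.22) and NDUFA4L2 (-0.24) in PND2R, COX6A2 in PND2N (-0.35) and UQCRC2 LOC100620271 (0.12) and COX6A2 (-0.11) in the average turned. TMM scaling gave NDUFS1 0.0263 in PND2R, and library weights gave it 0.0885 and COX6A2 -0.18 in PND2N. With single libraries left out the ranges were -0.13 to 0.11 for SDHC, -0.34 to 0.40 for UQCRC2 LOC100620271, -0.11 to 0.0744 for NDUFS1, -0.00818 to 0.0947 for ATP5B and -0.18 to 0.41 for NDUFA4L2 in PND2R, -0.0194 to 0.24 for NDUFS1, -0.35 to 0.53 for COX6A2 and -0.59 to 0.0902 for NDUFA4L2 in PND2N, and -0.62 to 0.12 for UQCRC2 LOC100620271, -0.0112 to 0.12 for NDUFS1 and -0.33 to 0.13 for NDUFA4L2 in the average. Entries below about 10 lie near the lowest value, where the depth limits what can be seen.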
